A study of Homo sapiens with 6 samples.

Results

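The genes for the microtubule motors of human cells were followed in newly made RNA: the kinesins (KIF genes), cytoplasmic dynein with its light chains (DYNC and DYNL genes) and the dynactin subunits DCTN1 to DCTN6. They were taken by gene symbol, without regard to any measured value. The rule found 58 of the 60448 genes in the deposited tables, and 14 further names that were antisense genes, pseudogenes or ended in P were left out. By their known work they were set in 5 classes: 13 mitotic kinesins, 15 transport kinesins, 11 other kinesins, 13 dynein genes and 6 dynactin genes.

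RNA labelled with 4-thiouridine (4sU), a uridine analogue that marks transcripts made during the labelling time, was sequenced from RPE1 cells, an immortalised line from human retinal pigment epithelium. The 6 libraries formed 3 groups of 2. The first was wild type with neither doxycycline nor hydrogen peroxide (H2O2), the second was wild type without doxycycline but with H2O2, and the third was NuMA (TDIF)-KD, a knockdown of NuMA, with doxycycline and H2O2. Doxycycline and the knockdown therefore cannot be told apart, and an untreated knockdown was not analysed here. The labels give no dose, no time and no knockdown construct. They do not state whether a line was 1 clone or whether libraries were grown apart, and a p-value here reflects the spread of these libraries alone, possibly a technical one.

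Kinesins use ATP to walk along microtubules, mostly toward the plus end, where they carry vesicles and organelles outward. Cytoplasmic dynein walks the other way and needs dynactin and a cargo adaptor to move far. A separate set of kinesins works in cell division, where they push spindle poles apart, move chromosomes and build the midzone at which the cell divides, while NuMA gathers dynein and dynactin at the spindle poles and the cell cortex. Genes of the division kinesins are known to be transcribed mostly in G2 and mitosis, through complexes that bind a short promoter element called CHR and a nearby CCAAT box.

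The tables held 1 value per gene and group, pooled over libraries, from which mean counts per library were recovered. The total was 14576529 for untreated wild type cells, 17989740 for wild type cells with H2O2 and 16565168 for the knockdown, and the depth and spread of single libraries are unknown. In the authors' deposited table the log2 fold changes were not scaled for depth, and their median over genes of 50 or more mean counts was 0.29 for H2O2 and -0.29 for the knockdown. Log2 changes below have this median subtracted and carry the standard error (SE) that the deposited p-value implies. A gene rose or fell where a normal test on this error, with Benjamini-Hochberg adjustment over all tested genes, gave an adjusted p under 0.05. A level is the mean count plus 1 per kilobase of gene length, scaled so that the median gene is equal in the 3 groups, and the values of both comparisons share the H2O2-treated wild type group. Among genes with over 500 mean counts the SE had a median of 0.21 after H2O2 and 0.11 in the knockdown.

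NUMA1, the knockdown's target, is on the minus strand of chromosome 11 (hg38, 72002864 to 72080693). Its level was 686 in untreated wild type, 754 in wild type with H2O2 and 548 in the knockdown. In the knockdown NUMA1 fell by 0.46 ± 0.12 (SE) on the log2 scale, a 1.38-fold decrease (adjusted p = 0.00112). Of 7 markers of retinal pigment epithelium, RPE65, RLBP1 and TYRP1 stayed under 10 mean counts in every group, with TYRP1 at 0, while MITF had between 583.5 and 674. Others of the 7 changed after H2O2: OTX2 fell 2.83-fold, from 387 to 166.5 mean counts (adjusted p = 2e-07), and BEST1 rose by 3.25 ± 0.65, from 4.5 to 63 (adjusted p = 6.62e-06). Of 5 epithelial markers, only the keratin genes KRT8 and KRT18 averaged at least 50 mean counts in a comparison, and 1 stayed under 10 in every group. KRT8 and KRT18 had at least 5491.5 mean counts in each group, and KRT8 rose by 1.04 ± 0.20 after H2O2 and fell by 0.37 ± 0.07 in the knockdown. The 6 fibroblast markers had summed levels of 4997, 8456 and 8501. Of these, 2 rose and 0 fell after H2O2, and 1 rose and 2 fell in the knockdown.

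Of the 58 motor genes, 44 reached 50 mean counts in at least 1 group, 13 stayed under 12 and 3 of these (KIF2B, KIF12 and KIF26A) had no reads. After H2O2 in wild type cells, 49 could be tested: 13 rose and 11 fell, where 16.6% of all 18522 tested genes were called higher and 15.8% lower. Of the 42 that averaged at least 50 mean counts over the compared groups, 13 rose and 11 fell. Among all 11602 such genes, 2465 rose and 2566 fell. In the knockdown, 50 motor genes could be tested: 8 rose and 17 fell, where 15.4% of 18266 tested genes were called higher and 14.5% lower. Of the 43 that averaged at least 50 mean counts there, 8 rose and 16 fell. Among all 11556 such genes, 2666 rose and 2487 fell. The median log2 change of the tested motor genes was 0.02 after H2O2 and -0.15 in the knockdown, beside 0.05 and 0.01 over all tested genes. Without centring, the authors' deposited table had 18 motor genes higher after H2O2 and 4 lower, where 26.7% of all tested genes were higher and 9.60% lower. For the knockdown the authors' deposited table had 4 motor genes higher and 24 lower, where 6.81% and 28.0% of all tested genes were. The classes differed in direction: calls among the mitotic kinesins were all lower in both comparisons, whereas most calls among transport kinesins, dynein and dynactin after H2O2 were higher.

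**Figure D1:**
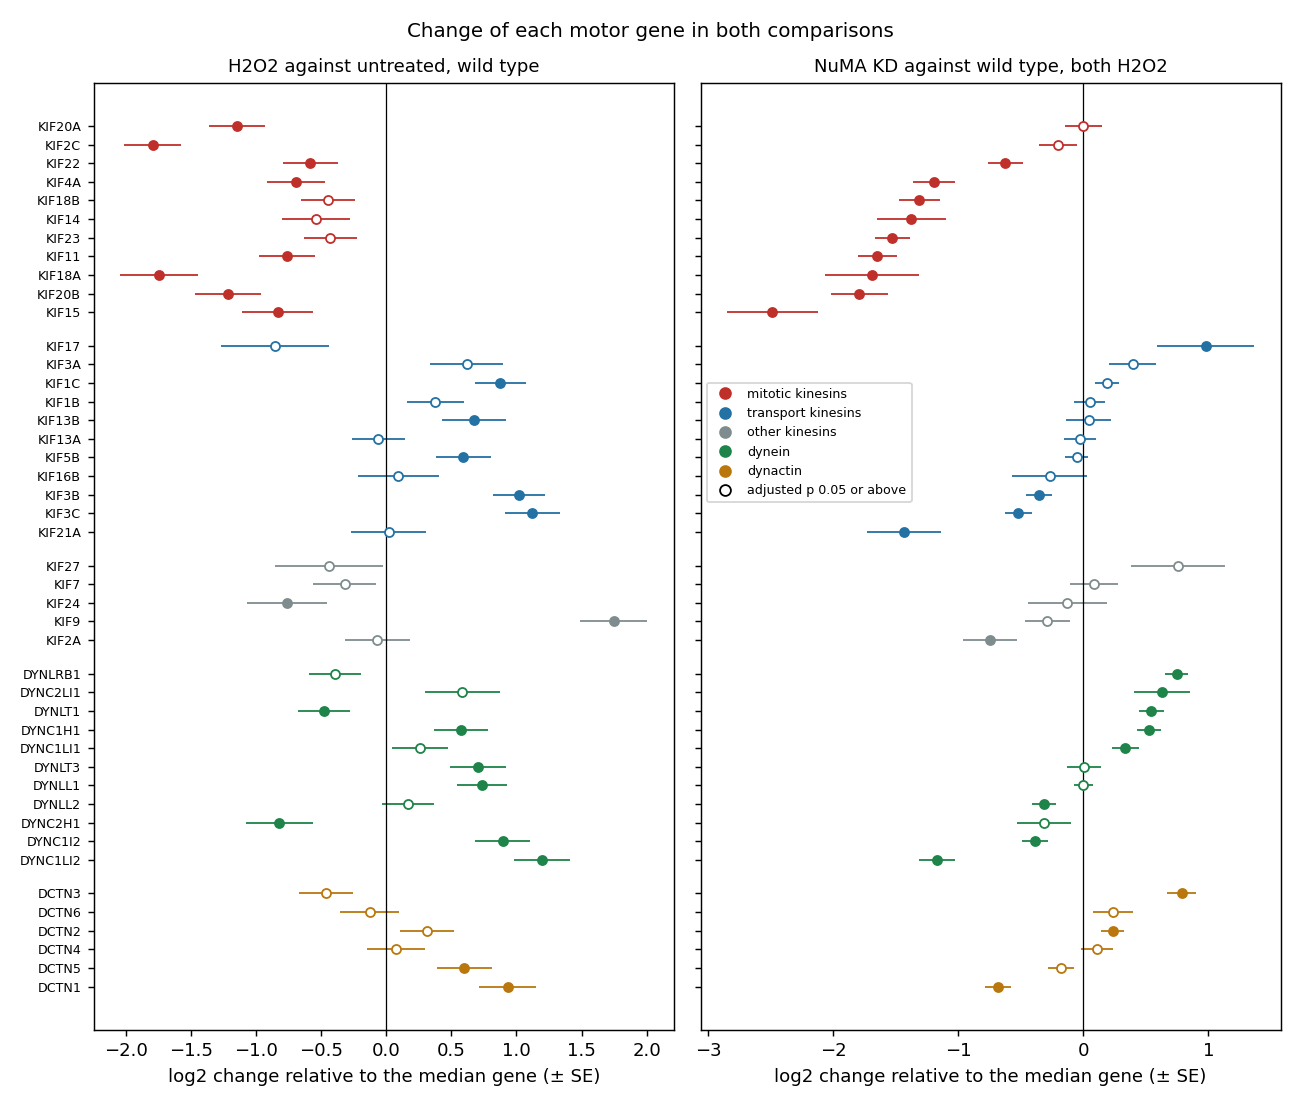
Log2 change of each motor gene with at least 50 mean counts in a group, relative to the median gene (x axis, ± implied SE), after H2O2 in wild type (left) and in the knockdown against wild type, both with H2O2 (right). Filled points had an adjusted p under 0.05, and colours give the class. The 11 mitotic kinesins all lie left of 0 after H2O2, and in the knockdown 9 of them fell while KIF20A stands at 0.00.

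Only 6 motor genes fell in both comparisons, all of them mitotic kinesins: KIF11, KIF15, KIF18A, KIF20B, KIF22 and KIF4A. In the authors' deposited table, KIF18A, KIF20B and KIF2C were lower in both. After H2O2, 8 of the 11 that could be tested fell and none rose, with a median log2 change of -0.76. In the knockdown, 9 of 11 fell and none rose, with a median of -1.37. Their summed level went from 5145 in untreated wild type to 2652 with H2O2 and 1541 in the knockdown. KIF2B, a kinetochore depolymerase, had no reads, and KIF4B, an intronless near copy of KIF4A, had at most 2 mean counts, so neither was tested. Reads of KIF4A and KIF4B could have been split between them by the counting.

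KIF11 encodes Eg5, the motor that slides spindle microtubules apart to separate the poles, and lies on chromosome 10 from 92593286 to 92655395 (plus strand). Its level was 279 in untreated wild type, 165 with H2O2 and 52.6 in the knockdown, so that every step was downward. KIF11 fell by 0.76 ± 0.21 after H2O2 (adjusted p = 0.00219) and fell by 1.65 ± 0.16 in the knockdown (adjusted p = 2.09e-23). KIF15, on chromosome 3 from 44761717 to 44873376 (plus strand), encodes a motor that can take over pole separation from Eg5. The KIF15 level was 90.1, 50.6 and 9.03 in the same order of groups. Of all motor genes that were called, KIF15 had the largest drop in the knockdown, where it fell by 2.49 ± 0.36 or 5.61-fold (adjusted p = 1.51e-10), and it fell by 0.83 ± 0.27 after H2O2 (adjusted p = 0.0100). Its mean counts were 143 with H2O2 and 20 in the knockdown.

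The kinesins that move and align chromosomes followed. KIF18A, which dampens chromosome movements at the spindle equator, had levels of 212, 63.4 and 19.7, and fell by 1.74 ± 0.30 after H2O2 and fell by 1.69 ± 0.38 in the knockdown. KIF18B, which acts on astral microtubules, had levels of 352, 259 and 104. It fell by 1.31 ± 0.17 in the knockdown, while its change after H2O2 was -0.44 ± 0.21 (adjusted p = 0.0871). The chromosome-arm motors KIF22 and KIF4A differed in size of change. KIF22 had levels of 724, 483 and 314 and fell by 0.58 ± 0.21 after H2O2 and then fell by 0.62 ± 0.14, the smallest drop in the knockdown among the mitotic kinesins called. KIF4A, with levels of 345, 213 and 93.1, fell by 0.69 ± 0.22 after H2O2 and fell by 1.20 ± 0.17 in the knockdown.

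Kinesins of the midzone and of cytokinesis fell in the knockdown with 1 exception. KIF23, the motor subunit of centralspindlin, had levels of 724, 538 and 187. KIF23 fell by 1.53 ± 0.14 in the knockdown (adjusted p = 2.99e-25), and its change after H2O2 was -0.43 ± 0.20 (adjusted p = 0.0919). KIF20B, needed for late cytokinesis, had levels of 158, 68.1 and 19.7. It fell by 1.21 ± 0.26 after H2O2 and fell by 1.79 ± 0.23 in the knockdown. KIF14, which works with the citron kinase at the midbody, was the lowest of the tested mitotic kinesins in untreated cells, with levels of 41.8, 28.8 and 11.1. It fell by 1.37 ± 0.28 in the knockdown, and after H2O2 its change was -0.54 ± 0.26 (adjusted p = 0.106).

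KIF20A and KIF2C showed a different pattern from the other 9. KIF20A, which carries the chromosome passenger complex to the midzone, lies on chromosome 5 from 138178719 to 138187715 (plus strand). Its level was 861 in untreated wild type and 389 in both H2O2-treated groups. KIF20A fell by 1.15 ± 0.21 after H2O2 (adjusted p = 1.12e-06), and its change in the knockdown was 0.00 ± 0.15. KIF2C, the microtubule depolymerase MCAK, lies on chromosome 1 from 44739818 to 44767767 (plus strand) and had levels of 1358, 392 and 341. KIF2C had the largest drop of any motor gene after H2O2 and fell by 1.79 ± 0.22, or 3.46-fold (adjusted p = 1.24e-14), close to the change of -1.74 in KIF18A, while its change in the knockdown was -0.20 ± 0.15 (adjusted p = 0.362). In the authors' deposited table, KIF2C was called lower in the knockdown, with a log2 fold change of -0.49 and an adjusted p of 0.00469. KIF20A shares 3.34% of its exon bases with BRD8 on the other strand, whose mean counts were 1209, 517.5 and 440.5, and whether counting used strand is not given in the sources used here.

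**Figure D2:**
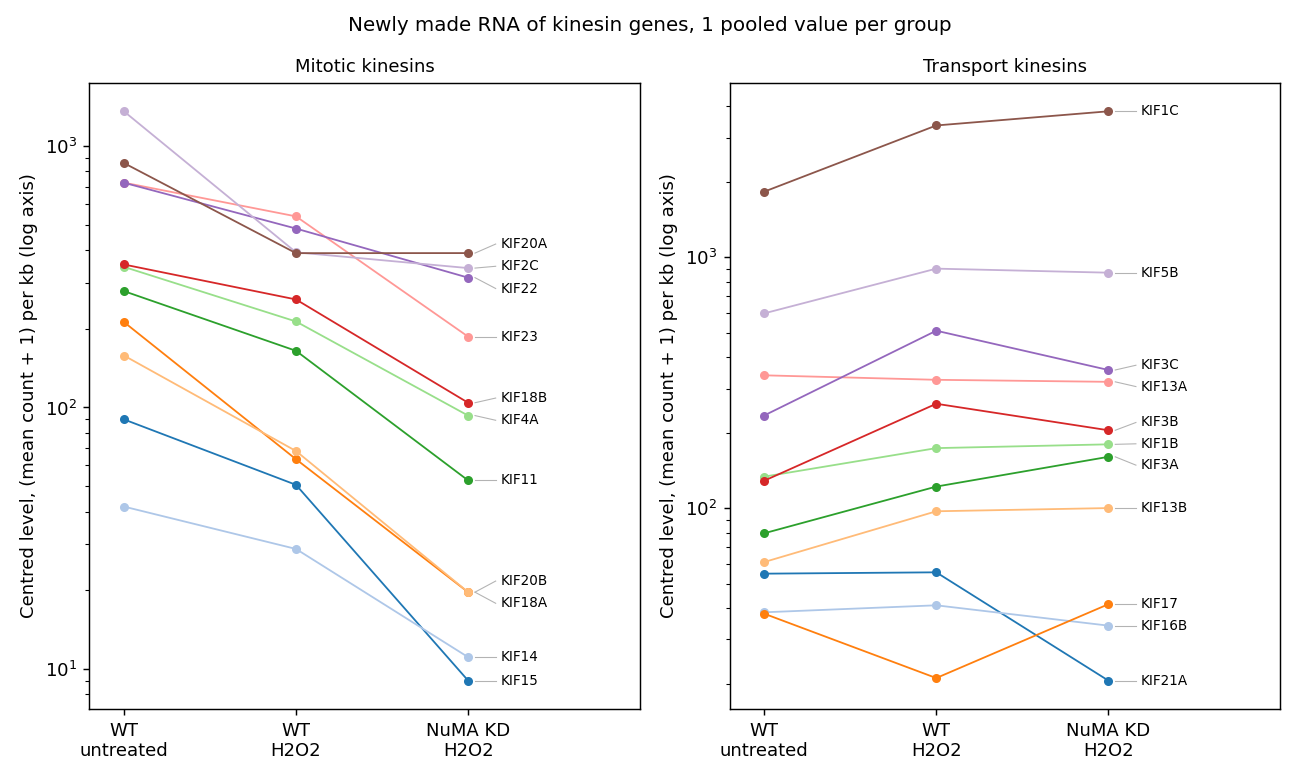
Level of each mitotic kinesin (left) and transport kinesin (right) with at least 50 mean counts in the 3 groups (y axis, mean count plus 1 per kilobase on a log scale, set so that the median gene is equal in the groups), with 1 pooled value per group and no error over libraries. The mitotic kinesins run from higher levels in untreated wild type to lower levels in the knockdown, as KIF11 does from 279 to 52.6, with KIF20A level at 389 between the H2O2-treated groups, while KIF1C goes from 1826 to 3352 after H2O2.

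The call of 4 of the 8 mitotic kinesins lower after H2O2 (KIF11, KIF15, KIF22 and KIF4A) was absent from the authors' deposited table, whose fold changes are not centred. All 9 calls in the knockdown stood in that table too. Genes that mark or run the same phase of the cell cycle moved alongside. Of 15 G2 and M phase markers, 13 fell in each comparison, and their summed level went from 20341 to 8222 and 4927. Of 16 spindle partners of these kinesins, 11 fell after H2O2 and 14 in the knockdown, with medians of -0.98 and -0.81. These lists overlap, since both hold CCNB1, CDK1, BUB1 and AURKA. AURKB, the kinase of the passenger complex that KIF20A carries, fell by 2.35 ± 0.22 after H2O2, and ANLN, a scaffold of the cytokinetic ring, fell by 1.73 ± 0.11 in the knockdown. The libraries pool all cells, so fewer cells in G2 and mitosis and less new RNA per cell cannot be told apart. Of 4 listed motors without a KIF symbol of the searched form, CENPE and KIFC1 fell in both comparisons as well. The other 2, KIFC2 and KIFC3, were not called after H2O2, and in the knockdown 1 of them rose and 1 was not called. The authors' deposited table called 2 of the 4 higher and 2 lower after H2O2, and 0 higher and 3 lower in the knockdown. CENPE, a kinetochore motor, had changes of -1.43 ± 0.25 and -1.91 ± 0.33, and KIFC1, which bundles minus ends, had -1.01 ± 0.20 and -1.10 ± 0.12.

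The promoters of 6 mitotic kinesins are printed because they show which of these genes hold the CHR and CCAAT letters near their start and which do not. The sequences are from RefSeq (GRCh38.p14) and run from 250 bases before to 50 bases after the RefSeq start, which can differ from the gene start given above. Capitals mark the CHR letters, TTTGAA or TTCGAA, and the CCAAT letters, each searched on both strands. A match on the other strand reads TTCAAA for CHR. For the CCAAT box it reads ATTGG. The windows are chr10:92592880-92593179 for KIF11, chr3:44761544-44761843 for KIF15, chr15:69414099-69414398 for KIF23, chr10:89701340-89701639 for KIF20B, chr5:138178862-138179161 for KIF20A and chr1:44739587-44739886 for KIF2C, all on the plus strand.
KIF11: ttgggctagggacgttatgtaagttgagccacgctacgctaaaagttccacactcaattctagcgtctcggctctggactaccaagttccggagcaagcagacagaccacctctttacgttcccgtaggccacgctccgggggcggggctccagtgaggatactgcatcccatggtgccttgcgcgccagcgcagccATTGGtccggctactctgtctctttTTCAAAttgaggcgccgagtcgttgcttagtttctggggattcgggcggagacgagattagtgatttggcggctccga
KIF15: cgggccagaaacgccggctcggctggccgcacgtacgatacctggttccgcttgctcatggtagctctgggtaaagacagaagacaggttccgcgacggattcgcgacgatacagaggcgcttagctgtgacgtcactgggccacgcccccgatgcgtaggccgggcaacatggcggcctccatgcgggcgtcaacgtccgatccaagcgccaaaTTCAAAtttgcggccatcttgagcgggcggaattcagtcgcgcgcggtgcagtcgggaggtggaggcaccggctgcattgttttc
KIF23: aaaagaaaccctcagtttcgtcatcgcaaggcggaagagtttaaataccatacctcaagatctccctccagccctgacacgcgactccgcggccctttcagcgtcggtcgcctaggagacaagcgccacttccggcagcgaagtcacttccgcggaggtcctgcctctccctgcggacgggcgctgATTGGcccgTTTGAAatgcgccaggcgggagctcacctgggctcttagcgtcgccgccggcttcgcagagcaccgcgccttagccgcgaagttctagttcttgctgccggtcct
KIF20B: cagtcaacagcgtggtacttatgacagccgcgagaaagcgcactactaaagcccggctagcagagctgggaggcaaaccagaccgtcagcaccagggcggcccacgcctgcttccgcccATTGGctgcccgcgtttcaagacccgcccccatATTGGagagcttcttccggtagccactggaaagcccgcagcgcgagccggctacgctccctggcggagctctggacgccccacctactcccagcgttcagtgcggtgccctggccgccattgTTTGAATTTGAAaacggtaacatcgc
KIF20A: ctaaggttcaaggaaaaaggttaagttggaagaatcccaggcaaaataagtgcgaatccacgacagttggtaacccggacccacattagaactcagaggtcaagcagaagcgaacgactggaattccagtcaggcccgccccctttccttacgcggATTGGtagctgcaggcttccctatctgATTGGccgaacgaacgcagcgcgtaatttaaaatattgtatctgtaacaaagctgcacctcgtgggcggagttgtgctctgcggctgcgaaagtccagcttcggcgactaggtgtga
KIF2C: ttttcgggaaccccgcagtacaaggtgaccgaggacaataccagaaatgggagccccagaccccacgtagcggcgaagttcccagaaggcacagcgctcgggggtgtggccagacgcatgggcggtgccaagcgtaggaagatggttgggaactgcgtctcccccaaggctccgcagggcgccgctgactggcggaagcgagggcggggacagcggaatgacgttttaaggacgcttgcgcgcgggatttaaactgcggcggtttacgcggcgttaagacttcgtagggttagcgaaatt

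In KIF11 the CHR letters begin 28 bases before the start and a CCAAT box begins 53 bases before it. KIF23 holds them at 55 and 64 bases before the start, and KIF15 has CHR letters 35 bases before it and no CCAAT letters. KIF20B has CCAAT letters before the start and CHR letters 25 and 31 bases after it. KIF20A has 2 CCAAT boxes and no CHR letters in its window, and KIF2C has neither. A promoter window was given for 50 of the 58 motor genes. CHR letters stood in a window of 9 of the 11 tested mitotic kinesins (81.8%), in 3 of 37 other motor genes (8.11%) and in 19.5% of all 27305 genes in the table. CCAAT letters stood in 81.8%, 40.5% and 39.7%, and both in 72.7%, 8.11% and 9.02%. The 3 other motor genes with CHR letters were KIF24, KIF5B and DYNLRB2, which were not called in the knockdown after centring. Of these, KIF5B was called lower there in the authors' deposited table, at -0.34 (adjusted p = 0.00106). DYNLRB2 had at most 4.5 mean counts in any group. The pair of tested mitotic kinesins without the searched CHR letters, KIF20A and KIF2C, are also the pair not called in the knockdown after centring. Without centring, the authors' deposited table called KIF2C lower there. Both genes were called lower after H2O2, with log2 changes of -1.15 for KIF20A and -1.79 for KIF2C. The match was seen after their values were known, and it is given as a description of these letters in these windows and not of any factor's binding. Letters other than TTTGAA and TTCGAA were not searched for CHR. The near spelling TTTAAA stands in the printed windows of KIF20A, KIF2C and KIF23. Any part of such letters in the changes was not tested.

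Gene span was set beside the changes, because 4sU labelling of a long gene catches RNA that is still being made. Among the 11 mitotic kinesins, Spearman's rho between span and the knockdown's log2 change was -0.67, from KIF20A with 8.997 kb to KIF4A with 131 kb. The other classes also had a negative rho there: -0.71 for dynactin, -0.43 for transport kinesins, -0.30 for other kinesins and -0.28 for dynein. Over all 11526 genes with at least 50 mean counts it was -0.24. After H2O2 rho was -0.17 among the mitotic kinesins and 0.27 over all 11573 such genes. In the other classes it ran from -0.57 for transport kinesins to 0.49 for dynactin. These points share libraries, and rho is a description without a test. With the trend of fold change with span removed over all genes, 9 mitotic kinesins were still lower in the knockdown, with a median of -1.29, and 8 after H2O2, with a median of -0.91.

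**Figure D3:**
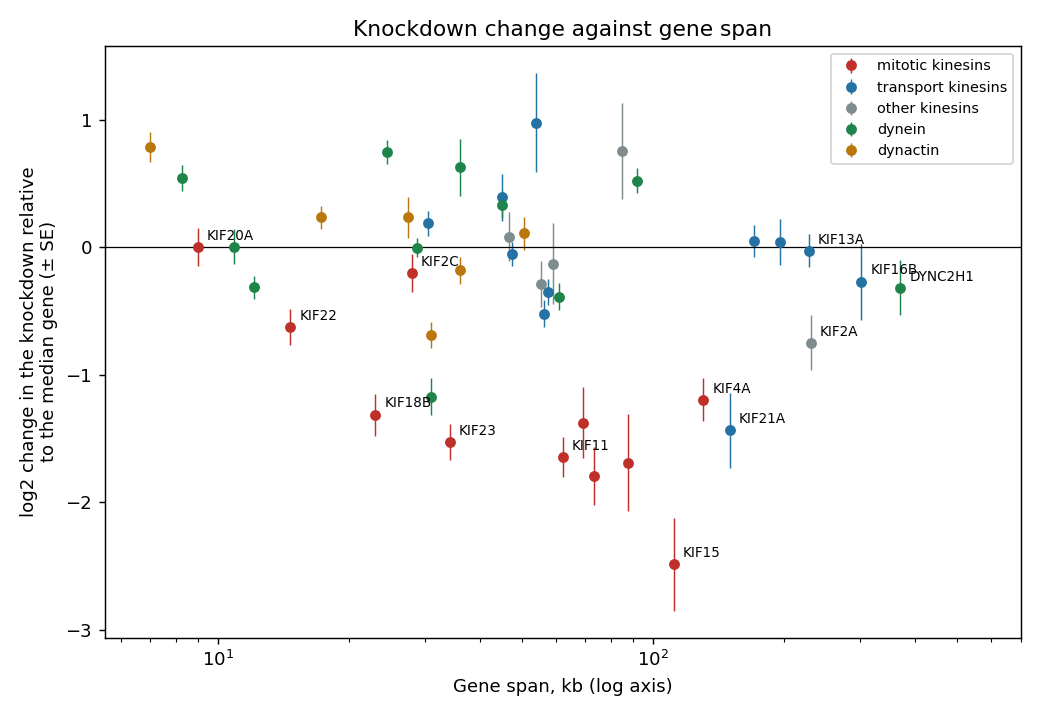
Log2 change in the knockdown relative to the median gene (y axis, ± implied SE) against gene span (x axis, kilobases on a log scale) for motor genes with at least 50 mean counts, coloured by class. KIF20A, with the shortest span of the mitotic kinesins at 8.997 kb, stands at 0.00, and KIF15, with 112 kb, stands lowest at -2.49.

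The transport kinesins that were called after H2O2 were all higher. Of 13 tested, 5 rose and none fell, with a median log2 change of 0.59, and their summed level went from 3542 to 5869. In the knockdown, 1 of 14 tested rose and 3 fell, with a median of 0.01 and a summed level of 6109. The shares over all tested genes were 16.6% higher and 15.8% lower after H2O2, and 15.4% and 14.5% in the knockdown. The class held the abundant KIF1C and also neuronal motors that were close to absent. KIF1A, KIF21B and KIF5A, which carry cargo along axons or in dendrites, had at most 6.5 mean counts in any group, and KIF5C at most 26. Of 8 neuronal markers, 4 stayed under 10 mean counts in every group, with DCX and STMN2 at 0, and the summed level of all 8 was 383, 506 and 354. Another 3 averaged at least 50 mean counts in each comparison. Of these, 2 rose and 1 fell after H2O2, and in the knockdown 1 fell and 2 were not called.

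KIF1C, a motor for vesicles and integrins, lies on chromosome 17 from 4997948 to 5028401 (plus strand) and had the highest level of the kinesins. Its level was 1826 in untreated wild type, 3352 with H2O2 and 3817 in the knockdown. KIF1C rose by 0.88 ± 0.20 after H2O2, a 1.84-fold increase (adjusted p = 6.57e-05), and its change in the knockdown was 0.19 ± 0.10 (adjusted p = 0.133). KIF5B, the heavy chain of conventional kinesin outside neurons, had levels of 598, 901 and 868. It rose by 0.59 ± 0.21 after H2O2 (adjusted p = 0.0185), and its change in the knockdown was -0.05 ± 0.09. KIF13B, which carries membrane receptors and scaffolds, rose by 0.67 ± 0.25, from a level of 61.0 to 97.3, and stood at 100.2 in the knockdown.

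KIF3A, KIF3B and KIF3C form the motor that carries cargo into the cilium and along axons. KIF3B had levels of 129, 261 and 205, so that the knockdown stood between the wild type groups. It rose by 1.02 ± 0.20 after H2O2 (adjusted p = 6.18e-06) and fell by 0.35 ± 0.10 in the knockdown (adjusted p = 0.00353). KIF3C, an alternative partner of KIF3A, had levels of 234, 510 and 356 in the same shape. It rose by 1.12 ± 0.21 (adjusted p = 1.03e-06) and fell by 0.52 ± 0.11 (adjusted p = 9.88e-06). KIF3A, the shared subunit, had levels of 79.5, 122 and 160. Neither change of KIF3A passed the test, with 0.62 ± 0.28 (adjusted p = 0.0754) and 0.39 ± 0.18 (adjusted p = 0.0964). The authors' deposited table called KIF3A higher after H2O2, at 0.91 (adjusted p = 0.00478). KIFAP3, the cargo-binding subunit of the same motor, rose by 1.08 ± 0.25 after H2O2.

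KIF21A, a motor that slows microtubule growth at the cell cortex, fell by 1.43 ± 0.29 in the knockdown (adjusted p = 1.02e-05), from a level of 55.6 to 20.6, after a change of 0.02 ± 0.29 with H2O2. KIF21A had mean counts of 43, 53.5 and 15.5 if its recovered length is right, since the length was not settled by the annotation. KIF17, a motor of dendrites and cilia, rose by 0.98 ± 0.39 in the knockdown (adjusted p = 0.0412), from 40 to 65 mean counts. That call was absent from the authors' deposited table. KIF13A, KIF16B and KIF1B, which carry endosomes, mitochondria or synaptic vesicle precursors, did not pass the test in either comparison. Their levels spanned 319 to 339, 34.1 to 41.0 and 134 to 180 over the 3 groups.

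Partners of the transport kinesins were mixed. Of 17 tested, 5 rose and 2 fell after H2O2, with a median of 0.30, and 6 rose and 3 fell in the knockdown, with a median of 0.13. Over all tested genes, 16.6% rose and 15.8% fell after H2O2, and 15.4% rose and 14.5% fell in the knockdown. Among the partners the highest called changes after H2O2 were of KLC3, a kinesin light chain, which went from 0 to 15.5 mean counts, and of MAPK8IP2, a scaffold that binds light chains, which went from 3.5 to 42. FEZ1, a kinesin adaptor known from neurons, fell by 1.57 ± 0.56 and averaged under 50 mean counts over the compared groups. MAPK8IP3, a further scaffold, fell by 0.65 ± 0.21 after H2O2 and rose by 0.96 ± 0.22 in the knockdown. PLEKHM2, which links lysosomes to kinesin, rose by 0.67 ± 0.10 in the knockdown, and KLC4 by 0.58 ± 0.19. In the knockdown KIF1BP, which binds and holds back several kinesin motor domains, fell by 0.57 ± 0.12, SPAG9 fell by 0.40 ± 0.11 and FEZ2 fell by 0.35 ± 0.12.

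Among the other kinesins, 5 of 11 had at least 50 mean counts in a group. KIF9, known from the motile cilium and sperm tail, lies on chromosome 3 from 47228026 to 47283451 (minus strand). It had mean counts of 86.5, 358 and 239.5 and levels of 65.5, 220 and 180. KIF9 had the largest rise of any motor gene called after H2O2, 1.75 ± 0.26 or 3.35-fold (adjusted p = 4.95e-10), and its change in the knockdown was -0.29 ± 0.18 (adjusted p = 0.248). KIF9 shares 14.9% of its exon bases with the antisense gene KIF9-AS1, which had 25.5, 40 and 32.5 mean counts. Of 7 markers of motile cilia, 4 stayed under 10 mean counts in every group, with RSPH1 at 0, and the summed level of all 7 was 37.3, 159 and 159. FOXJ1, the transcription factor of motile cilia, went from 2.5 to 339 mean counts after H2O2 and had 288.5 in the knockdown. Of the 4 markers tested after H2O2, FOXJ1 was called higher and 3 were not called, and in the knockdown 4 were tested and not called. The part of these genes in the change of KIF9 was not tested.

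KIF24, which trims centriole microtubules, fell by 0.76 ± 0.31 after H2O2 (adjusted p = 0.0408), from a level of 27.3 to 16.1, a call absent from the authors' deposited table. KIF2A, a depolymerase related to KIF2C, had levels of 223, 213 and 127 and fell by 0.75 ± 0.22 in the knockdown (adjusted p = 0.00270). KIF2A shares 8.97% of its exon bases with IPO11 on the same strand, which had 237, 261 and 150 mean counts. KIF7, a regulator of Hedgehog signalling at the cilium tip, and its relative KIF27 did not pass the test in either comparison. KIF7 shares 11.8% of its exon bases with TICRR on the other strand.

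The dynein genes moved in both directions. After H2O2, 5 of 12 tested rose and 2 fell, with a median log2 change of 0.42. In the knockdown 5 rose and 3 fell, with a median of 0.00, while the authors' deposited table called 3 of them higher and 5 lower. Their summed level was 14942, 20238 and 22706, with the light chain DYNLL1 the highest member in each group. The shares over all tested genes were 16.6% higher and 15.8% lower after H2O2, and 15.4% and 14.5% in the knockdown.

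The motor subunit DYNC1H1, the heavy chain of cytoplasmic dynein 1, lies on chromosome 14 from 101964510 to 102056443 (plus strand). Its level was 1433 in untreated wild type, 2130 with H2O2 and 3064 in the knockdown. DYNC1H1 rose in both comparisons, by 0.57 ± 0.21 (adjusted p = 0.0220) and by 0.52 ± 0.10 (adjusted p = 4.52e-07). The light intermediate chains, which link dynein to its cargo adaptors, went in different directions in the knockdown. DYNC1LI2, on chromosome 16 from 66720893 to 66751798 (minus strand), had levels of 295, 677 and 301, so that the knockdown stood at the level of untreated wild type. It rose by 1.20 ± 0.22 after H2O2 (adjusted p = 4e-07) and fell by 1.17 ± 0.15 in the knockdown (adjusted p = 3.12e-14). DYNC1LI1 had levels of 704, 844 and 1065. It rose by 0.34 ± 0.11 in the knockdown (adjusted p = 0.00718), a call absent from the authors' deposited table, and its change after H2O2 was 0.26 ± 0.22 (adjusted p = 0.379).

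DYNC1I2, the intermediate chain that binds dynactin in most cells, had levels of 756, 1403 and 1074. It rose by 0.89 ± 0.21 after H2O2 (adjusted p = 0.000180) and fell by 0.39 ± 0.10 in the knockdown (adjusted p = 0.00131). Its neuronal relative DYNC1I1 had at most 3.5 mean counts. Dynein 2 carries cargo back from the cilium tip. Its heavy chain DYNC2H1 fell by 0.82 ± 0.26 after H2O2 (adjusted p = 0.00665), from a level of 100.7 to 57.0, and its light intermediate chain DYNC2LI1 rose by 0.63 ± 0.22 in the knockdown (adjusted p = 0.0186), from 160 to 248. The DYNC2H1 call after H2O2 and the DYNC2LI1 call in the knockdown were absent from the authors' deposited table.

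DYNLL1, a light chain shared with many other protein complexes, had the highest level of all motor genes, 6462 in untreated wild type, 10754 with H2O2 and 10743 in the knockdown. It rose by 0.73 ± 0.19 after H2O2 (adjusted p = 0.000835), and its change in the knockdown was -0.00 ± 0.08. The table also lists pseudogenes of DYNLL1, so its reads could have been split in counting. DYNLL2, its close relative, had levels of 359, 403 and 324 and fell by 0.31 ± 0.09 in the knockdown (adjusted p = 0.00372). DYNLRB1, of the roadblock family, and DYNLT1, of the Tctex family, were lowest in H2O2-treated wild type. DYNLRB1 had levels of 3093, 2352 and 3951 and rose by 0.75 ± 0.09 in the knockdown (adjusted p = 1.28e-14). DYNLT1 had levels of 1322, 948 and 1382, fell by 0.48 ± 0.20 after H2O2 (adjusted p = 0.0495) and rose by 0.54 ± 0.10 in the knockdown (adjusted p = 5.12e-07). The fall of DYNLT1 after H2O2 was absent from the authors' deposited table. DYNLT3, the other Tctex gene, rose by 0.71 ± 0.21 after H2O2 (adjusted p = 0.00440), from a level of 305 to 498, and stood at 499 in the knockdown.

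**Figure D4:**
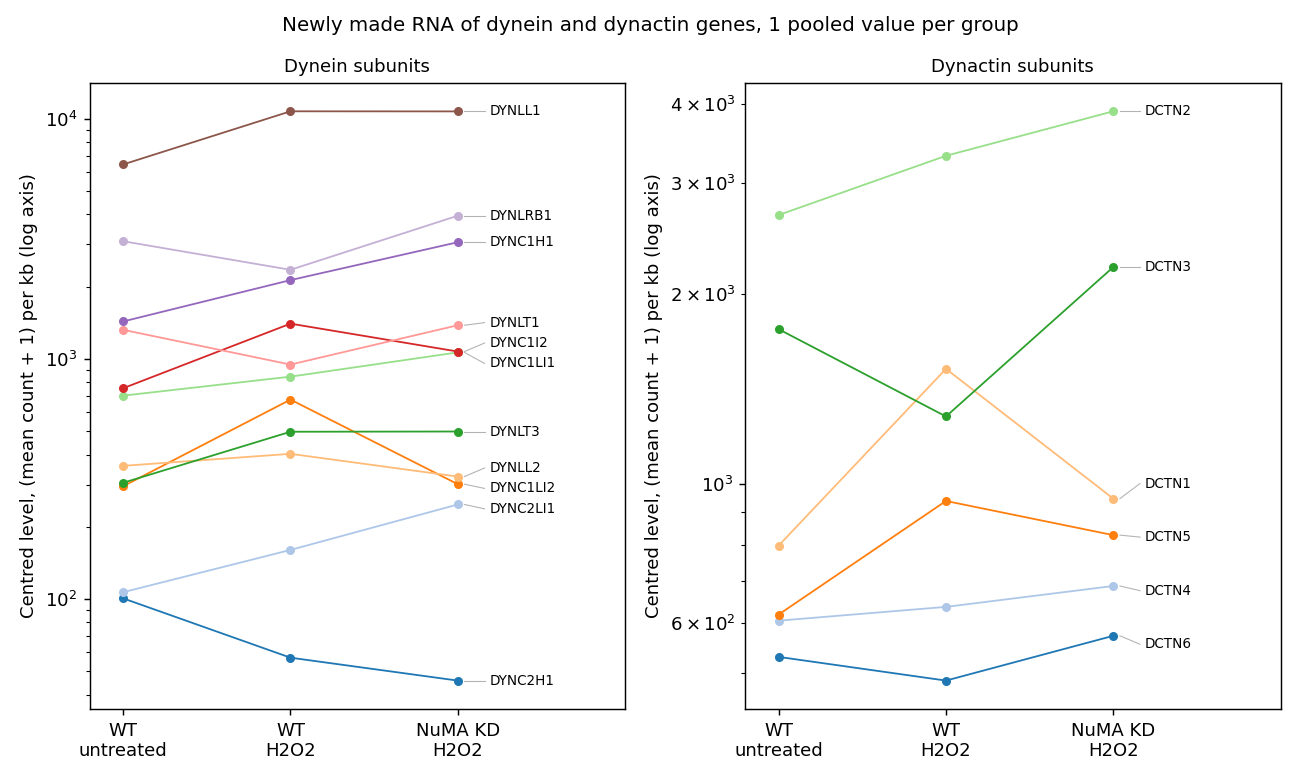
Level of each dynein (left) and dynactin (right) gene with at least 50 mean counts in the 3 groups (y axis, mean count plus 1 per kilobase on a log scale, set so that the median gene is equal in the groups), with 1 pooled value per group and no error over libraries. DYNC1LI2 and DCTN1 peak in H2O2-treated wild type, at 677 and 1521, while DYNLRB1 and DCTN3 are lowest there, at 2352 and 1278.

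All 6 dynactin genes were tested, and their summed level was 6981, 8175 and 9141. After H2O2, 2 rose and none fell. In the knockdown 2 rose and 1 fell, while the authors' deposited table called 1 higher and 2 lower. All genes of at least 50 mean counts gave 2465 higher and 2566 lower of 11602 after H2O2. For the knockdown they gave 2666 higher and 2487 lower of 11556. DCTN1 encodes p150Glued, the arm by which dynactin holds dynein and the microtubule, and lies on chromosome 2 from 74361154 to 74392087 (minus strand). Its level was 798 in untreated wild type, 1521 with H2O2 and 947 in the knockdown, so that H2O2-treated wild type stood above the other groups. DCTN1 rose by 0.93 ± 0.22 after H2O2 (adjusted p = 0.000194) and fell by 0.68 ± 0.10 in the knockdown (adjusted p = 3.76e-10).

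DCTN3, a small subunit of the dynactin shoulder, went the other way, with levels of 1758, 1278 and 2206. DCTN3 rose by 0.79 ± 0.12 in the knockdown (adjusted p = 3.2e-10), and its change after H2O2 was -0.46 ± 0.21 (adjusted p = 0.0719). DCTN2, the dynamitin subunit that joins the shoulder to the filament, had levels of 2668, 3313 and 3898. It rose by 0.23 ± 0.09 in the knockdown (adjusted p = 0.0407), while in the authors' deposited table its log2 fold change there was -0.06, and the call was lost under 6 of 7 alternatives. DCTN5, of the pointed-end complex, rose by 0.60 ± 0.21 after H2O2 (adjusted p = 0.0184), from a level of 620 to 939. Its change in the knockdown was -0.18 ± 0.10 (adjusted p = 0.201), and the authors' deposited table called it lower there, at -0.47 (adjusted p = 3.85e-05). DCTN4 and DCTN6, of the same end of the filament, did not pass the test in either comparison. DCTN6 shares 12.8% of its exon bases with LEPROTL1 on the same strand.

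Of 6 dynactin subunits with other gene names, 2 rose after H2O2 (ACTR10 by 0.72 ± 0.21 and CAPZA2 by 1.07 ± 0.20) and 2 rose in the knockdown (ACTR1A, the filament's actin-related protein, by 0.44 ± 0.09 and CAPZA1 by 0.26 ± 0.10), and none fell. Of 17 tested regulators and adaptors of dynein, 3 rose and 1 fell after H2O2, with a median of 0.24, and 1 rose and 7 fell in the knockdown, with a median of -0.34. Over all tested genes, 16.6% rose and 15.8% fell after H2O2, and 15.4% rose and 14.5% fell in the knockdown. The regulators and adaptors that rose after H2O2 were the adaptors HOOK3, by 0.73 ± 0.22, BICD2, by 0.72 ± 0.22, and TRAK2, by 0.56 ± 0.21, and BICD1 fell by 0.58 ± 0.24. The 3 furthest drops in the knockdown were of genes that bring dynein to kinetochores: KNTC1 fell by 1.41 ± 0.20, SPDL1 fell by 1.19 ± 0.15 and ZW10 fell by 1.02 ± 0.23. TRAK2, an adaptor for mitochondria, rose there by 0.42 ± 0.11.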

How the data were processed

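RNA isolated with Trizol was made into libraries by an Illumina protocol, per the labels' protocols. Per the submitters' processing notes STAR 2.5, DESeq2, DESeq and build hg38 were in use, with no role given for each, and the counting tool, strand setting and annotation are not given in the sources used here. The authors deposited, per gene and group, 1 signal value pooled over 2 libraries, whose unit the headers do not state. The values' steps showed it to be the mean count plus 1, divided by gene length, times a constant, with no scaling for depth. The deposited log2 fold change was the log2 ratio of these values, and a deposited p-value stood beside it.

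A length giving whole counts or whole counts divided by 2 in all groups, within 1e-06, was found for all 60448 genes, and 86.0% of lengths equalled the mean transcript length of GENCODE 29 rounded down. For 12 motor genes (DYNC1H1, DYNC2H1, KIF12, KIF13A, KIF16B, KIF1A, KIF1B, KIF21A, KIF23, KIF24, KIF25 and KIF3C) the length was not settled, so their mean counts, and not their levels or fold changes, may be off by a common multiple. The implied SE was the size of the deposited log2 fold change over the normal quantile of its p-value, or the median of 101 neighbours in mean count where that gave none. From each fold change the median over tested genes of 50 or more mean counts was subtracted (11602 and 11556 genes), and the rest was tested with a two-sided normal test and Benjamini-Hochberg adjustment over 18522 and 18266 genes. The steps were tested on simulated data. Python 3.11.15 with scipy 1.17.1 was used.

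The members, classes, lists and tests were chosen with earlier results of these data known. Every motor gene with at least 50 mean counts in a group could be named. Full values went to the 8 highest and 8 lowest called changes and to each called mitotic kinesin, dynein and dynactin gene, and of each partner list to the 3 highest and 3 lowest called genes. Genes named for having few counts, for CHR letters or for a shared exon were chosen after their values were seen. Alternatives changed the centring, the scaling, the span trend and the added count. Scaling by totals used genes of settled and unsettled length alike. A planned search for a motif in the motor proteins was not run.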

Additional observations from a re-analysis of the deposited data

How the results depend on the processing

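The direction of every called motor gene held under all 7 alternatives except DCTN2 in the knockdown, which stood at -0.056 without centring. Of 24 called motor genes after H2O2, 13 were called under every alternative, and of 25 in the knockdown, 21 were. Some motor genes were called only in the authors' deposited table and not after centring. After H2O2 these were KIF1B, KIF3A, DYNC1LI1, DYNC2LI1 and DCTN2, all higher. For the knockdown they were KIF2C, KIF5B, KIF9, KIF13A, DYNC2H1, DYNLL1 and DCTN5, all lower. Without centring, after H2O2, 4 motor genes were lower in place of 11, all of them mitotic kinesins, in place of 8, and the medians were 0.31 for all motor genes, -0.47 for mitotic kinesins, 0.88 for transport kinesins, 0.71 for dynein and 0.48 for dynactin. Without centring in the knockdown, 4 motor genes were higher in place of 8, no transport kinesin was higher (0 in place of 1) and 5 were lower in place of 3, 3 dynein genes were higher and 5 lower in place of 5 and 3, and the medians in the same order were -0.44, -1.67, -0.28, -0.29 and -0.12. Scaling by total counts also gave 4 motor genes, 3 dynein genes and 0 transport kinesins higher in the knockdown, with medians of -0.32 for all motor genes, -1.55 for mitotic kinesins, -0.17 for dynein and 0.000833 for dynactin. Totals without mitochondrial genes gave the same 3 counts there and 3 transport kinesins higher after H2O2 in place of 5. With the span trend removed, 3 transport kinesins were higher and 1 lower after H2O2, and 2 were higher in the knockdown. A minimum of 500 mean counts for the genes that set the median left 0 transport kinesins higher in the knockdown. Requiring a call in both the centred and the deposited test, an alternative chosen after seeing the data, gave 4 motor genes and 4 mitotic kinesins lower after H2O2, and 4 motor genes, 3 dynein genes and 0 transport kinesins higher in the knockdown. Of the dynactin genes, 1 in place of 2 was higher in the knockdown without centring, under both total scalings, with both other minimums, with the span trend removed and with a call in both tests, and 2 in place of 1 were lower without centring and under both total scalings. After H2O2, totals without mitochondrial genes gave 1 dynactin gene higher in place of 2, and that scaling and both other minimums gave 1 lower in place of 0. The shift removed was 0.29 by the median gene, and between 0.30 and 0.43 by the other scalings after H2O2, and -0.29 against -0.12 to -0.28 in the knockdown. Some motor genes that were not called changed sign under a scaling while staying uncalled: 6 after H2O2 and 10 in the knockdown, with sizes there of at most 0.23 and 0.29. Apart from centring and scaling, the cause of these differences was not tested. No paired analysis was possible because the tables hold 1 pooled value per group, so neither the replicate block nor leaving out a library could be run. Genes with few counts had wide errors: KIF5C, with at most 26 mean counts, had an SE of 0.54 and 0.67.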
